A study of Mus musculus with 10 samples.

Results

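Skin defends itself with small antimicrobial proteins, and 9 mouse genes of this kind are described here: the β-defensins Defb1, Defb6 and Defb14, the cathelicidin Camp, the calprotectin subunits S100a8 and S100a9, the lipocalin Lcn2, and the whey acidic protein (WAP) domain genes Slpi and Wfdc2. They were chosen by name from the gene tables of epidermal cells that had lost a Polycomb subunit. All 9 were among the 18502 genes of the Eed table and 8 among the 18344 genes of the Ring1 table, where Camp was not analysed. The choice was made with the differences between the groups known, so their values and fold changes in both comparisons are a description and carry no test.

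β-defensins are secreted cationic peptides that damage microbial membranes, and Defb1 is known in mouse and human epithelia as a family member made without infection. The calprotectin subunits, lipocalin 2 and the cathelicidin are abundant in neutrophils, and keratinocytes make them in wounded or inflamed skin, where calprotectin binds zinc and manganese and lipocalin 2 captures bacterial iron carriers. Polycomb repressive complex 2 (PRC2), of which Eed is a core subunit, and PRC1, with Ring1 (Ring1a) and Rnf2 (Ring1b) as ubiquitin ligases, keep genes silent through histone marks.

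RNA was sequenced from interfollicular epidermis of mouse back skin at postnatal day 71, sorted as cells with EpCAM, Sca1 and much α6-integrin on their surface, the surface profile of basal keratinocytes. The 10 libraries were Eed -/- (called Eed knockout, n = 3) with Eed controls (n = 3), and Ring1a-/- Ring1b-/- (called Ring1a/b 2KO, n = 2) with Ring1 controls (n = 2). Per the labels, 4-hydroxytamoxifen at 20 mg/ml, 100 µl a day, was put on the shaved back for 4 days from postnatal day 50, and the protocol is given alike for knockouts and controls. The recombinase driver, the alleles of the controls and whether each library is a separate mouse are not known here. The p-values of the fits therefore measure the spread between these libraries.

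The values are normalised read counts from the authors' deposited tables, each table normalized separately, so levels are set against each other only within a table. Both tables hold protein-coding genes alone, and reads were counted over these. The libraries held 31699979 to 40701183 reads in the Eed table and 6237389 to 25158144 in the Ring1 table. In the Ring1 table library 2 of each group had the fewer reads. Krt5, a basal keratin, averaged 589158 ± 129846 in Eed knockouts against 538417 ± 162944 in Eed controls (SD, n = 3 each), and 114597 ± 9513 in Ring1a/b 2KO against 123713 ± 13900 in Ring1 controls (SD, n = 2 each). The targeted genes, counted over all exons, overlapped between groups: Eed had 1412, 1143 and 1340 in Eed knockouts against 1845, 1319 and 1706 in Eed controls. Ring1 had 104 and 115 in Ring1a/b 2KO against 66.2 and 211 in Ring1 controls, and Rnf2 had 720 and 529 in Ring1a/b 2KO against 675 and 670 in Ring1 controls. The floxed exons are not given, so these counts do not check the labels. The 13 mitochondrial protein-coding genes gave 8.16% and 12.7% of the counted reads in Ring1a/b 2KO libraries 1 and 2. In Ring1 controls 1 and 2 they gave 6.51% and 7.28%.

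The level of Y-linked genes also moved with the groups. The summed count of 4 Y-linked genes (Ddx3y, Eif2s3y, Uty and Kdm5d) was 126 and 219 in the Ring1a/b 2KO libraries against 2378 and 1318 in the Ring1 controls. In that comparison the Y-linked level and the genotype cannot be told apart. In the Eed table it was 152, 8958 and 610 in Eed knockouts 1 to 3 against 10101, 7231 and 557 in Eed controls 1 to 3, so both groups hold libraries of each kind.

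Defb1 was the member with the widest gap at a high level. Defb1 (ENSMUSG00000044748.8, mm10 chr8:21776599-21795185, + strand) had 2617 and 1813 in Ring1a/b 2KO libraries 1 and 2, against 373 and 291 in Ring1 controls 1 and 2. Both 2KO libraries lay far above both controls. The group means were 2215 ± 569 in Ring1a/b 2KO and 332 ± 58.1 in Ring1 controls (SD, n = 2 each), a ratio of 6.67 and a fitted log2 fold change of 2.72 (SE 0.247), on the scale of log2(count + 1).

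In the Eed comparison Defb1 had 3169, 903 and 1538 in Eed knockouts 1 to 3, against 1058, 890 and 1284 in Eed controls 1 to 3. The groups overlapped, since knockout 2 lay below controls 1 and 3, and knockout 1 was the highest library. The means were 1870 ± 1169 in Eed knockouts and 1077 ± 198 in Eed controls (SD, n = 3 each), a ratio of 1.74 and a fitted log2 fold change of 0.62 (SE 0.395). Without Eed knockout 1 the log2 fold change was 0.15. Ordered by fold change, Defb1 stood at place 197 of 15310 genes in the Ring1 table and at place 1691 of 16122 in the Eed table.

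Defb1 also followed the Y-linked level in the Eed table. The 3 libraries with a low level (knockouts 1 and 3, control 3) had Defb1 counts between 1284 and 3169, and the 3 with a high level (knockout 2, controls 1 and 2) between 890 and 1058, with no overlap. S100a8, S100a9 and Slpi separated by this level in the same direction, as did 5.52% of the 16122 fitted genes. Fitted together with the Y-linked level, Defb1 in Eed knockouts had a log2 fold change of 0.21 (SE 0.278). The part of the Y-linked level in the Defb1 values was not tested, and in the Ring1 table no library separates it from the genotype.

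**Figure D1:**
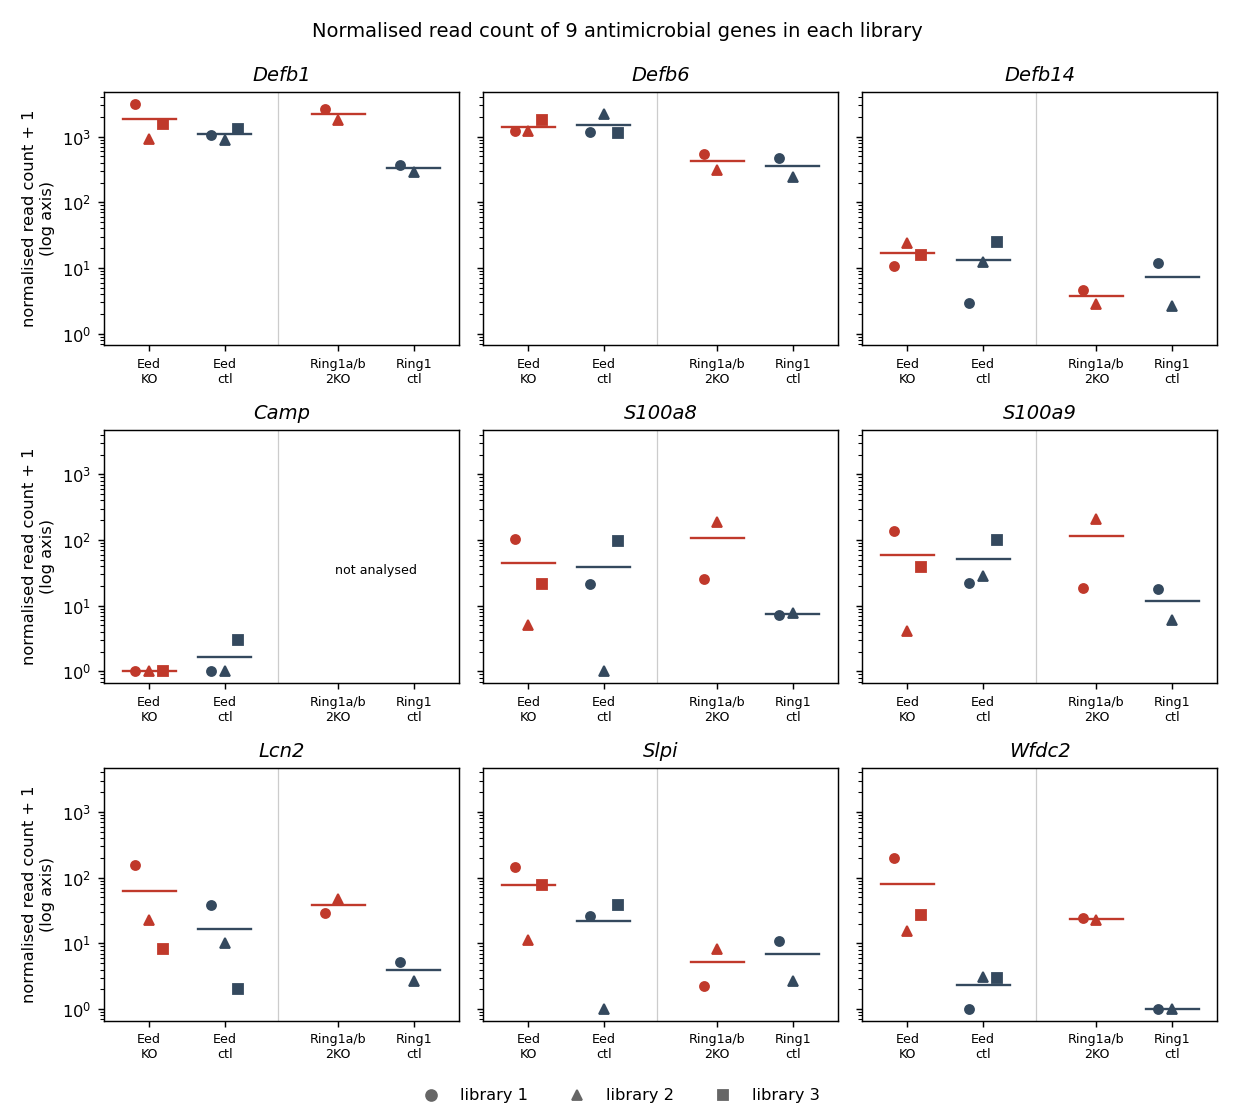
Normalised read count + 1 (log axis) of each of the 9 genes in each library; horizontal lines are group means, marker shapes are library numbers, and the 2 tables were normalized separately. Defb1 and Wfdc2 lie higher in both Ring1a/b 2KO libraries than in both Ring1 controls, while Defb6 overlaps in both comparisons.

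Defb6, a β-defensin known in mouse from skeletal muscle and epithelia, did not follow Defb1. Defb6 (ENSMUSG00000050756.3, mm10 chr8:19225478-19228209, + strand) had 544 and 312 in Ring1a/b 2KO against 474 and 244 in Ring1 controls, where the groups overlapped, with a log2 fold change of 0.27 (SE 0.399). It had 1197, 1198 and 1788 in Eed knockouts against 1170, 2184 and 1150 in Eed controls, again with overlap, and a log2 fold change of −0.07 (SE 0.287). The sign of the Defb6 change turned in both comparisons when single libraries were left out, between −0.20 and 0.75 for Ring1a/b 2KO and between −0.26 and 0.24 for Eed knockouts in the same fit.

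Defb14 (ENSMUSG00000046354.3, mm10 chr8:19194357-19195212, + strand) lies 30.3 kb from Defb6 and is the mouse counterpart of human β-defensin 3. Its counts were low: 9.59, 22.8 and 15 in Eed knockouts against 1.95, 11.2 and 24.3 in Eed controls, with overlap and a log2 fold change of 0.72 (SE 0.887) that turned to −0.14 without Eed control 1. In the Ring1 table Defb14 had 3.71 and 1.79 in Ring1a/b 2KO against 10.9 and 1.66 in Ring1 controls, a mean under the minimum of 5 set for the fit. These are 7 reads in Ring1a/b 2KO and 22 in Ring1 controls, and no difference was detectable at this depth.

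Camp (ENSMUSG00000038357.10, mm10 chr9:109847379-109849617, − strand) encodes the precursor of the cathelicidin peptide. Its 3 Eed knockout libraries had 0 reads each, against 0, 0 and 2 reads in Eed controls 1 to 3. The gene was at or near the limit of detection in these cells, below the 3 reads a library that a count of 0 allows, and Camp gives no comparison.

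Per kilobase of exon, the members formed a high pair and a low rest. The length was the union of all annotated exons of a gene, not that of the transcripts made in these cells. It was 0.323 kb for Defb6, 0.872 kb for Defb1 and 2.62 kb for Lcn2. The order of members with near levels, Defb6 and Defb1 among them, depends on this length. In the Eed table Defb6 averaged 4316 counts per kb in Eed knockouts and 4648 in Eed controls, above Defb1 with 2145 in Eed knockouts and 1235 in Eed controls. In the Ring1 table Defb1 stood first in Ring1a/b 2KO with 2540 per kb, before Defb6 with 1325, and the order was the other way in Ring1 controls, with 381 for Defb1 and 1112 for Defb6. No other member averaged over 219 per kb, the mean of S100a9 in Ring1a/b 2KO. After Defb6 and Defb1 the order in Eed knockouts was S100a9, Defb14, Wfdc2, Slpi, S100a8 and Lcn2, and the libraries of each overlapped those of the next, with Camp last at 0. In Eed controls every pair of neighbours below Defb1 overlapped. In Ring1a/b 2KO the order was S100a9, S100a8, Wfdc2, Lcn2, Defb14 and Slpi, where S100a9 overlapped S100a8 and Lcn2 overlapped Defb14. In Ring1 controls it was Defb14, S100a9, S100a8, Slpi, Lcn2 and Wfdc2, with overlap between neighbours except S100a8 with Slpi and Lcn2 with Wfdc2.

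The calprotectin genes lie 22.6 kb apart on chromosome 3, S100a8 (ENSMUSG00000056054.9) at mm10 chr3:90668978-90670035 (+ strand) and S100a9 (ENSMUSG00000056071.12) at chr3:90692632-90695721 (− strand). S100a8 had 24.1 and 190 in Ring1a/b 2KO libraries 1 and 2 against 6.25 and 6.65 in Ring1 controls, a ratio of means of 16.6 and a log2 fold change of 3.22 (SE 0.958). S100a9, its partner in the heterodimer, had 17.3 and 212 in Ring1a/b 2KO against 16.7 and 4.99 in Ring1 controls, a ratio of means of 10.6 and a log2 fold change of 2.60 (SE 1.27). For both genes the 2KO libraries lay above the controls, but library 1 of Ring1a/b 2KO exceeded Ring1 control 1 by little for S100a9, and library 2 carried most of the mean. Without Ring1a/b 2KO 2 the log2 fold changes were 1.75 for S100a8 and 0.83 for S100a9. That library had the fewest reads and the highest mitochondrial share of the 4, and their part in the result was not tested.

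In the Eed table the calprotectin genes overlapped. S100a8 had 104, 4.15 and 20.5 in Eed knockouts against 20.5, 0 and 94.1 in Eed controls, a log2 fold change of 0.84 (SE 1.62) that ran from −0.99 without Eed control 2 to 2.29 without Eed control 3, and was −0.27 without Eed knockout 1. S100a9 had 135, 3.11 and 37.9 in Eed knockouts against 21.4, 27.4 and 100.1 in Eed controls. Its ratio of means was 1.18 while its fitted log2 fold change was −0.52 (SE 1.16), so the measures differ in sign, and the fitted value ran from −1.66 without Eed knockout 1 to 0.86 without Eed knockout 2. Sorted by the Y-linked level, S100a9 ran between 37.9 and 135 in the 3 libraries with a low level and between 3.11 and 27.4 in the 3 with a high level, without overlap. S100a8 ran between 20.5 and 104 at the low level and between 0 and 20.5 at the high level, apart by less than 1 count. With that level as a term in the fit, the log2 fold changes were −0.69 (SE 1.3) for S100a8 and −1.88 (SE 0.589) for S100a9. The part of the Y-linked level in these values was not tested.

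Lcn2 (ENSMUSG00000026822.14, mm10 chr2:32384633-32388252, − strand) had 27.8 and 46.6 in Ring1a/b 2KO against 4.17 and 1.66 in Ring1 controls. Both 2KO libraries lay above both controls, with a ratio of means of 12.8 and a log2 fold change of 3.32 (SE 0.861). In the Eed table Lcn2 had 155, 21.8 and 7.10 in Eed knockouts against 37.0, 9.13 and 1.01 in Eed controls, where the groups overlapped and the log2 fold change was 1.74 (SE 1.28). It was 0.56 without Eed knockout 1, the library with the highest count.

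The WAP-domain genes Slpi, an inhibitor of neutrophil serine proteases, and Wfdc2 lie 173 kb apart on chromosome 2. Wfdc2 (ENSMUSG00000017723.11, mm10 chr2:164562413-164568510, + strand) had 200.2, 14.5 and 26.0 in Eed knockouts against 0, 2.03 and 2.02 in Eed controls. Every Eed knockout library lay above every Eed control, and Wfdc2 was the single member for which this held. The reads numbered 214 in Eed knockouts, 167 of them in knockout 1, and 4 in Eed controls. After scaling for depth the ratio was 52.4, with a 95% counting interval of 20.2 to 194 that leaves out the spread between libraries. The fitted log2 fold change was 4.39 (SE 1.06). Without Eed knockout 1 it was 3.29.

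Wfdc2 in Ring1a/b 2KO libraries was 23.5 and 21.5, with 0 reads in both Ring1 controls. Taking 3 reads in every control library as the floor, this is at least 6.87-fold higher. Within the Eed libraries of low Y-linked level Wfdc2 averaged 113 in 2 knockouts against 2.02 in 1 control, and within those of high level 14.5 in 1 knockout against 1.01 in 2 controls. Fitted together with that level its log2 fold change was 3.55 (SE 0.961). Each of these levels has a group of 1 library, and the part of the Y-linked level in the Wfdc2 values was not tested.

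Slpi (ENSMUSG00000017002.14, mm10 chr2:164354070-164389095, − strand) had 143, 10.4 and 75.7 in Eed knockouts against 25.3, 0 and 37.4 in Eed controls. The groups overlapped through knockout 2, with a log2 fold change of 2.32 (SE 1.41) that was 0.65 without Eed control 2 and 1.14 (SE 1.26) when fitted together with the Y-linked level. Eed libraries with a low level had Slpi at 37.4 to 143 and those with a high level at 0 to 25.3. In the Ring1 table Slpi was near the limit of detection, with 1.24 and 7.17 in Ring1a/b 2KO against 9.90 and 1.66 in Ring1 controls.

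The promoters of Wfdc2, Slpi and S100a8 are shown because these genes differ in both their counts and the number of CG dinucleotides in this window, and Polycomb complexes in mammals are known to bind CG-rich promoters. Each runs from 250 bases before to 50 bases after the annotated start, 5′ to 3′ on the gene's own strand, from RefSeq on GRCm38.p6, with each CG in capitals. The windows are chr2:164562465-164562764 (+ strand) for Wfdc2, chr2:164356458-164356757 (− strand) for Slpi and chr3:90668821-90669120 (+ strand) for S100a8. The RefSeq start of Slpi lies inside the longer span that GENCODE M21 gives the gene, which also overlaps the microRNA gene Mir7678 on the same strand.
Wfdc2: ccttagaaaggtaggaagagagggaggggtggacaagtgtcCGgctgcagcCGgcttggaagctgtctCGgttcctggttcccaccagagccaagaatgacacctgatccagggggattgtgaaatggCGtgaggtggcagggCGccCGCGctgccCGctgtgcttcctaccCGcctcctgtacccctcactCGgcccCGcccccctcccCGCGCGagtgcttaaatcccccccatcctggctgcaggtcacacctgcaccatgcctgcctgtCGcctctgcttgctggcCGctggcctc
Slpi: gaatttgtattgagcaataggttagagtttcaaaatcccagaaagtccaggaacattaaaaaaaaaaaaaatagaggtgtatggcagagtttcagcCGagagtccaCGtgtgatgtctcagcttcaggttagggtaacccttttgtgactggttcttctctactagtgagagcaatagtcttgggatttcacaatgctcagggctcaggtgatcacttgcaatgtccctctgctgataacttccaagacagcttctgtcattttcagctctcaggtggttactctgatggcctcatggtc
S100a8: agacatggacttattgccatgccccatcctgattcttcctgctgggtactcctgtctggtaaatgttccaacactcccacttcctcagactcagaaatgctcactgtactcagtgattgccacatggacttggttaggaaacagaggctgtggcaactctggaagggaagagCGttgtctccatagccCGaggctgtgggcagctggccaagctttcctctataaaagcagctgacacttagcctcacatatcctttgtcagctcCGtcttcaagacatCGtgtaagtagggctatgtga

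The Wfdc2 window held 16 CG, S100a8 held 4 and Slpi held 2. Over 32851 mouse promoter windows of 300 bases the median was 7 CG (quartiles 3 and 20), and 67.0% of windows had fewer than Wfdc2. Of the 9 members 7 were matched in the table, Defb1 and Defb14 not being among them. The other 4 had 3 CG (Camp and Lcn2), 2 (S100a9) and 1 (Defb6), so Wfdc2 was the single matched member above the median. Its 16 CG lie within the quartiles, and the part of the CG number in the members' values was not tested. The letters TATAAA, on either strand, occur in the windows of S100a8 and S100a9 and in 13.6% of all windows. An NF-kappaB motif occurs in those of Defb6 and Camp and in 8.46% of all windows. The AP-1 motif TGANTCA (7.81% of all windows) and the STAT motif TTCNNNGAA (8.30%) were in none of the 7, and no matched motifs overlapped.

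**Figure D2:**
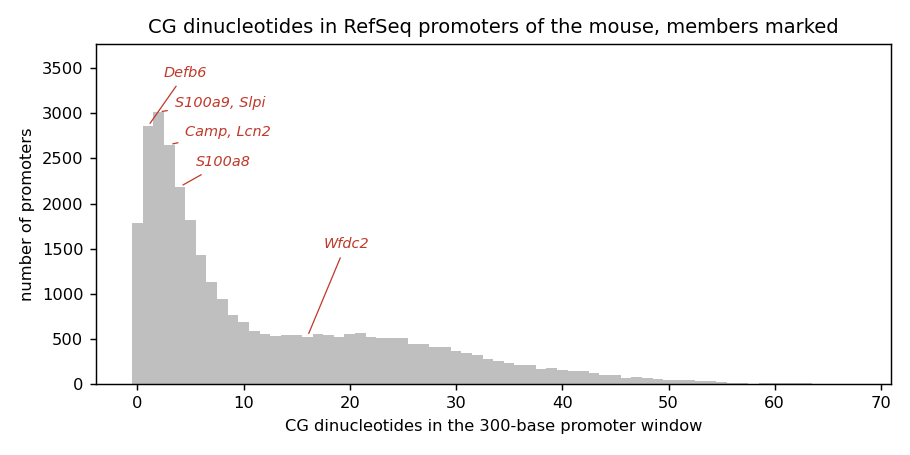
Number of CG dinucleotides in the 300-base promoter window of the 7 matched members, set against the distribution over all 32851 windows. Wfdc2, with 16, lies above the median of 7, and the other 6 lie between 1 and 4.

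Counts of calls among the members need the background of each table. limma was fitted to all genes with a mean count of at least 5. A Benjamini-Hochberg adjusted p under 0.05 was reached by 6 of 15310 genes in Ring1a/b 2KO (0.0392%), 5 of them higher (0.0327%). Defb1 was among these 5, the single call among 6 fitted members. The lower call was 1 of the 4 Y-linked genes, and the authors' deposited table called all 4. limma called 0 of 16122 genes in Eed knockouts (0%), with 762 genes (4.73%) at an unadjusted p under 0.05, against 1597 (10.4%) in Ring1a/b 2KO. edgeR on recovered reads called 0 of 15081 genes in Eed knockouts and 6 of 14565 in Ring1a/b 2KO (0.0412%), Defb1 among them. The authors' deposited table for Ring1a/b 2KO called 231 of 15498 genes (1.49%), 183 of them higher (1.18%), and the members among these were Defb1, S100a8 and Wfdc2. The authors' deposited table for Eed knockouts called 127 of 16684 genes (0.761%), 118 of them higher (0.707%), with Wfdc2 as the single member. Since the members were chosen on these contrasts, nothing is read from these counts.

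The limma call of Defb1 in Ring1a/b 2KO was lost without Ring1 control 1 or Ring1 control 2. DESeq2 on the recovered reads called Defb1 without each of the 4 libraries in turn. DESeq2 called S100a8 neither without Ring1 control 1 nor without Ring1a/b 2KO 2, called Wfdc2 in Ring1a/b 2KO in no run with a library left out, and did not call Wfdc2 in Eed knockouts without Eed knockout 1.

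Both knockout libraries lay above both controls for 5 members in the Ring1 comparison (Defb1, S100a8, S100a9, Lcn2 and Wfdc2), where this held for 21.4% of all fitted genes. In the Eed comparison it held for Wfdc2 alone among the members and for 5.06% of fitted genes. Defb14 and Slpi, which the minimum mean kept out of the Ring1 fit, had log2 fold changes of −0.64 and −0.33 in Ring1a/b 2KO in a fit without it. Wfdc2 and Lcn2 passed the minimum there through their 2KO counts alone, with means of 0 and 2.91 in Ring1 controls. In the Eed table Wfdc2 passed it through its knockout counts alone, with a mean of 1.35 in Eed controls. The median over all fitted genes was −0.00062 in Ring1a/b 2KO and 0.008 in Eed knockouts.

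**Figure D3:**
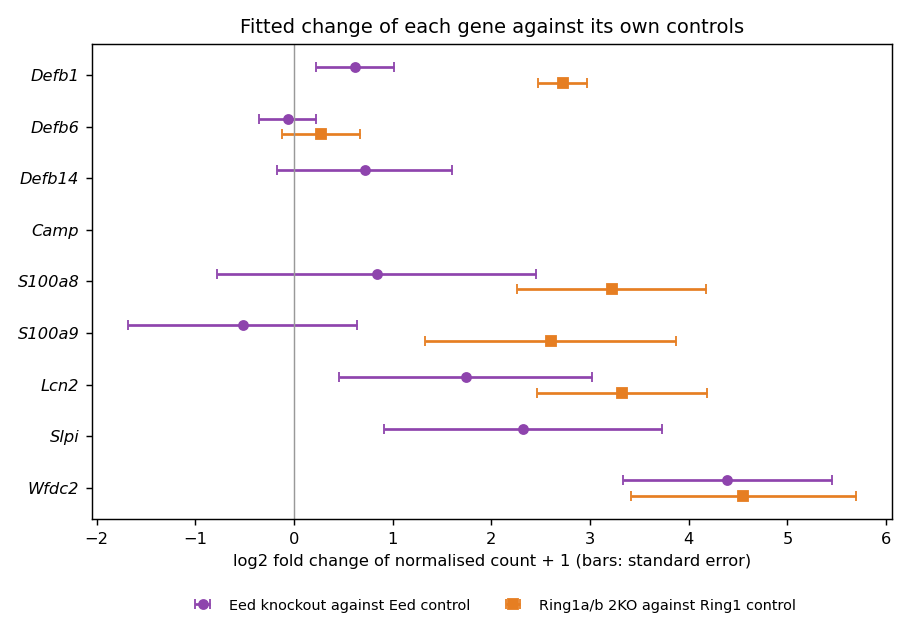
Fitted log2 fold change of normalised count + 1 for each member with a mean count of at least 5, Eed knockout against Eed control (circles) and Ring1a/b 2KO against Ring1 control (squares); bars are standard errors. Wfdc2 lies above 4 in both comparisons with 1 added to each count. With 5 added it was 2.46 in Ring1a/b 2KO, whose controls had 0 reads, and 2.99 in Eed knockouts. Defb1 has the shortest bar of the Ring1a/b 2KO values, at 2.72.

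Because several members are also neutrophil genes, markers of that cell were summed in each library. Fewer cells of a type and less RNA per cell cannot be told apart in these pools. The 8 neutrophil markers in the Ring1 table, of 15 listed, summed to 61.0 to 69.2 in Ring1a/b 2KO and 31.3 to 81.4 in Ring1 controls, with overlap. Il1b, which is also in the list of inducers, made up an average of 24.5 of these counts. limma and the authors' deposited table called 0 of them, 3 of the 4 fitted had a positive log2 fold change and their median was 0.25. Of the defining markers, Mpo, the myeloperoxidase gene, had 9.27 and 16.1 in Ring1a/b 2KO against 5.73 and 13.3 in Ring1 controls, Cxcr2 had 16.7 and 21.5 in Ring1a/b 2KO against 5.21 and 13.3 in Ring1 controls, and Csf3r overlapped. Ltf was at 0 in all 4 libraries but Ring1a/b 2KO 1, which had 0.618. Of the 15 markers, 11 were in the Eed table and summed to 216 to 325 in Eed knockouts and 158 to 297 in Eed controls. Eed knockout 1, with the highest Defb1, S100a8, S100a9, Lcn2, Slpi and Wfdc2, had the highest sum and the only Ltf (12.0) and Ly6g (3.60) counts of the 6 libraries, but the lowest Mpo (10.8, against 20.5 to 50.8 in the other 5). The part of neutrophils in the members' values was not tested.

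Genes of wounded and stressed keratinocytes were mostly higher in Ring1a/b 2KO, though limma called 0 of them. The list of 10 wound and stress genes summed to 19300.5 and 31449 in Ring1a/b 2KO against 13770 and 7410 in Ring1 controls. Of 9 fitted genes 7 had a positive log2 fold change, the median was 2.98, and the authors' deposited table called 4. Krt6a, a keratin of wounded epidermis, had 1788 and 4465 in Ring1a/b 2KO against 147 and 389 in Ring1 controls. Of the 2KO libraries the one with more Krt6a had more S100a8, S100a9 and Lcn2, but of the Ring1 controls the one with more Krt6a had less S100a9 and Lcn2. In the Eed table the list ran from 34946 to 144924 in Eed knockouts and from 23757 to 35503 in Eed controls, with 6 of 10 genes positive, a median of 0.56, 0 called by limma and 2 by the authors' deposited table, and Eed knockout 1, highest for these 6 members, was the highest here too. Defb1 was the higher in Ring1a/b 2KO 1, which had the lower Krt6a. The part of these genes in the members' values was not tested.

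Other cell types were measured in the same way. The 14 suprabasal and cornifying keratinocyte genes summed to 65417 and 67202 in Ring1a/b 2KO against 50645 and 39490.3 in Ring1 controls, without overlap, with 6 of 14 positive and a median of −0.08. limma called 0 of them and 3 were called in the authors' deposited table. In the Eed libraries they summed to 163541 to 324142 in Eed knockouts and 237524 to 463184 in Eed controls, with 2 of 14 positive and a median of −0.47. The 15 Langerhans and other myeloid genes summed to 638 and 1030 in the Ring1a/b 2KO libraries against 946 and 972 in Ring1 controls, with 2 of 9 fitted genes positive and a median of −0.89, and to 2596 to 4425 in Eed knockouts against 1526 to 5452 in Eed controls. T cell genes summed to 1442 and 1370 in Ring1a/b 2KO against 1709 and 1524 in Ring1 controls, without overlap, with 2 of 4 fitted positive. In the Eed table they overlapped. Upper hair follicle and sebaceous genes overlapped in both, with medians of 0.51 in Ring1a/b 2KO and 0.56 in Eed knockouts. In Ring1a/b 2KO limma called 0 of them and the authors' deposited table called 2. Krt17 is in both this list and the wound list, and Sprr1b is in both the wound and the suprabasal list. Basal keratinocyte genes had 2 of 10 positive in Ring1a/b 2KO (median −0.31) and 5 of 10 in Eed knockouts (median −0.04). The part of these cells in the members' values was not tested.

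**Figure D4:**
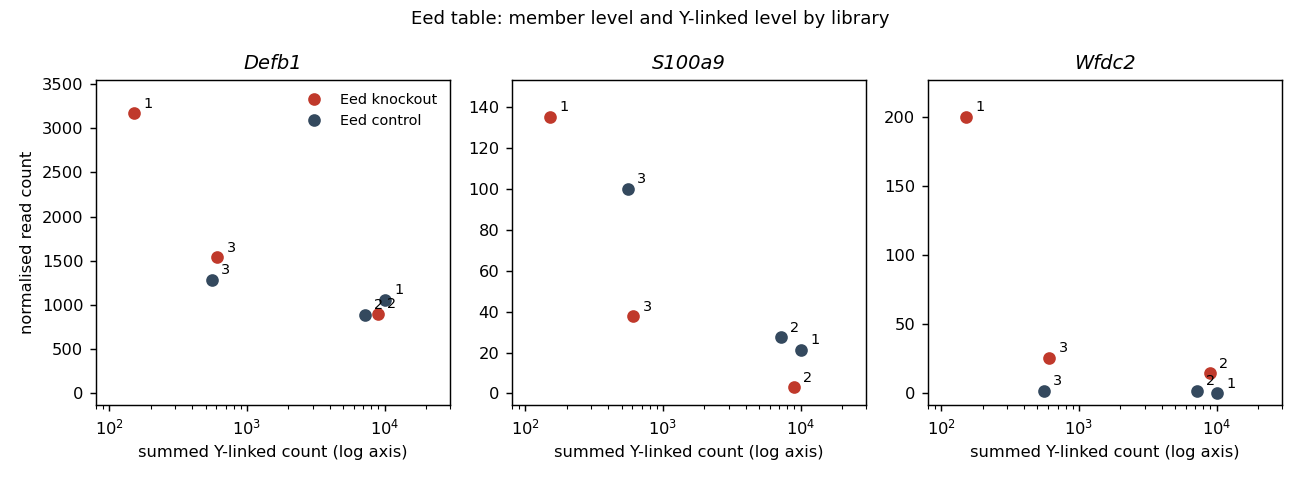
Normalised read count (linear axis) of Defb1, S100a9 and Wfdc2 against the summed count of 4 Y-linked genes (log axis) in each of the 6 Eed libraries, with library numbers beside the points. Defb1 and S100a9 are higher in the 3 libraries with a low Y-linked level, and for Wfdc2 knockout 1 stands apart at 200.2.

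Other antimicrobial genes of the skin made a list of 44, of which 22 could be fitted in the Ring1 table. limma called 0 of them, 2 had an unadjusted p under 0.05 (10.4% of all fitted genes did), and the authors' deposited table called 0. The log2 fold change was positive for 7 of the 22, and the list median was −0.38. Pglyrp4, a peptidoglycan recognition protein 31.2 kb from S100a9, had 216 and 32.3 in Ring1a/b 2KO against 258 and 307 in Ring1 controls, a log2 fold change of −1.73 (SE 1.03). Wfdc21 and Wfdc5, also WAP-domain genes, had log2 fold changes of −2.61 (SE 0.971) and −1.47 (SE 0.541), and the skin chemokine Ccl27a −1.08 (SE 0.663). For 6 listed genes, these 4 among them, both 2KO libraries lay below both controls, where 21.5% of all genes did so.

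In Eed knockouts 27 of the 44 genes were fitted, of which limma called 0 (1 at an unadjusted p under 0.05), 13 were positive and the median was −0.09. Pglyrp1, a bactericidal peptidoglycan recognition protein, had 58.8, 93.3 and 54.4 in Eed knockouts against 15.6, 13.2 and 16.2 in Eed controls. The groups did not overlap, and the log2 fold change was 2.09 (SE 0.481, with a limma adjusted p of 0.55), while the authors' deposited table gives it an adjusted p of 0.015. It is the single gene of the list that passed there, and it was named after its values were seen.

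The signals that induce these genes and the proteases that process them made a list of 60. limma and the authors' deposited tables called 0 of them in either comparison, with 8 in Ring1a/b 2KO and 6 in Eed knockouts at an unadjusted p under 0.05 in limma, beside 10.4% and 4.73% of all fitted genes. In Ring1a/b 2KO 47 were fitted, 9 of them positive, with a median of −0.32, and 14 lay lower and 2 higher without overlap, as did 21.5% and 21.4% of all fitted genes. Among the lower were the NF-kappaB subunits Relb, with a log2 fold change of −1.52 (SE 0.5), and Nfkb2 (−1.21, SE 0.528), and Il20ra, a receptor subunit for the interleukin-20 family (−1.46, SE 0.88). Slc22a17, a lipocalin 2 receptor, had 373 and 377 in Ring1a/b 2KO against 357 and 263 in Ring1 controls, with a log2 fold change of 0.29 (SE 0.258). The other gene that lay higher was the protease Klk6 (3.02, SE 1.16), which was named after its values were seen.

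In Eed knockouts 51 of the 60 were fitted, 16 positive, with a median of −0.17, and 6 lay lower and 3 higher without overlap, as did 4.15% and 5.06% of all fitted genes. The 3 higher, named after their values were seen, were the cytokine Il19 with a log2 fold change of 4.18 (SE 1.49), Klk6 with 1.65 (SE 0.814), and Ager, a receptor for S100 proteins, with 1.35 (SE 0.588). Spink5, which restrains the kallikreins that cleave cathelicidin, had 1447, 3991 and 2958 in Eed knockouts against 5076, 4848 and 6151 in Eed controls, and its log2 fold change was −1.05 (SE 0.33, with a limma adjusted p of 0.868). Its values in the Ring1 table were 1392 and 561 in Ring1a/b 2KO against 2372 and 2082 in Ring1 controls, a log2 fold change of −1.33 (SE 0.448). Klk5, one of those kallikreins, had 118, 176 and 163 in Eed knockouts against 235, 205 and 429 in Eed controls. In both comparisons the libraries did not overlap for Spink5, and no call was made. Il1r1 and Il1rl2 also lay lower without overlap in both comparisons, again with no call. Their log2 fold changes were −0.45 (SE 0.204) and −0.45 (SE 0.206) in Eed knockouts, and −0.57 (SE 0.208) and −0.79 (SE 0.269) in Ring1a/b 2KO.

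Of 14 further S100 genes, limma and the authors' deposited tables called 0 in either comparison, with 1 in Ring1a/b 2KO and 0 in Eed knockouts at an unadjusted p under 0.05 in limma. In Ring1a/b 2KO 9 were fitted and 6 were positive, with a median of 0.18, and in Eed knockouts 12 were fitted and 9 positive, with a median of 0.09. S100a11 had 17525 and 18178 in Ring1a/b 2KO against 16011 and 16799 in Ring1 controls, a log2 fold change of 0.12 (SE 0.211). S100a3, 66.3 kb from S100a8 and named after its values were seen, had a mean of 30.4 in Ring1a/b 2KO against 8.22 in Ring1 controls.

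**Figure D5:**
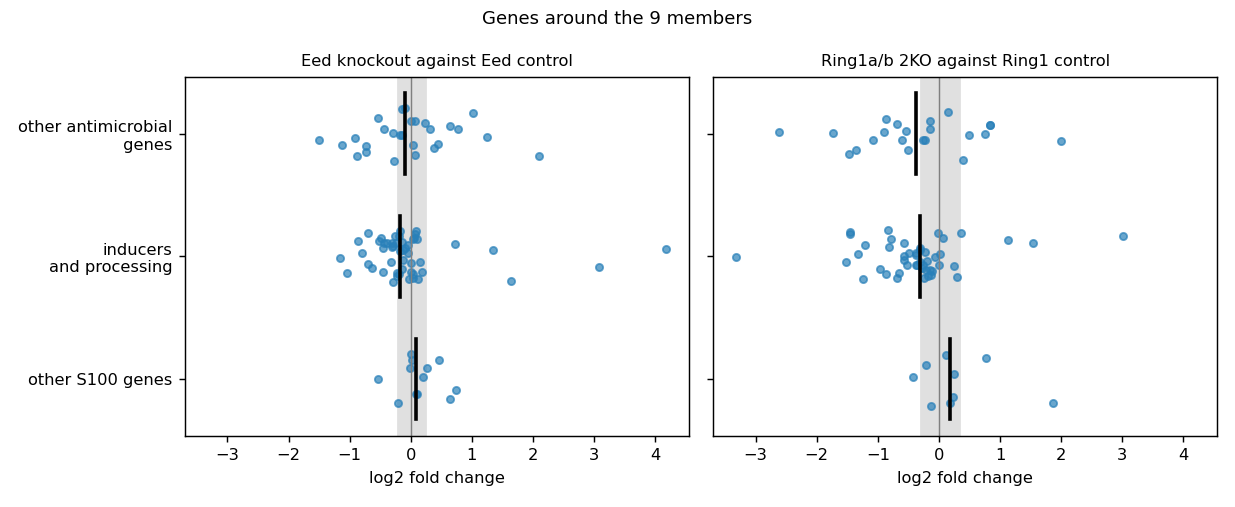
Fitted log2 fold change of each gene in the lists of other antimicrobial genes, inducers and processing genes, and other S100 genes (rows), Eed knockout against Eed control (left) and Ring1a/b 2KO against Ring1 control (right). Black bars are list medians, at −0.09, −0.17 and 0.09 on the left and −0.38, −0.32 and 0.18 on the right, and the grey band holds the middle quartiles of all genes.

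Genes beside the members were looked at for shifts of a whole region. Within 200 kb of Defb1 each table holds 8 genes, of which 2, both β-defensins, could be fitted. Defb2 averaged 20.0 in Ring1a/b 2KO against 26.6 in Ring1 controls and 29.0 in Eed knockouts against 79.2 in Eed controls, overlapping in both. Defb35 averaged 11.7 in Ring1a/b 2KO against 6.45 in Ring1 controls and 8.10 in Eed knockouts against 4.73 in Eed controls, also overlapping in both. Beside Wfdc2 9 genes were fitted in Ring1a/b 2KO, 5 positive with a median of 0.11, and 10 in Eed knockouts, 3 positive with a median of −0.22. Beside S100a8 12 genes were fitted in each comparison, 6 positive in Ring1a/b 2KO and 7 in Eed knockouts. Neither limma nor the authors' deposited table called any neighbour of these 3 members.

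The genes whose pattern was most like that of Defb1 were found among 11289 genes that averaged 50 counts or more in each table. Likeness was the root mean square difference in log2 count, less the mean of the own controls, over the 10 libraries, and its median over these genes was 1.39. The 5 closest were Smim3 (0.48), the keratin gene Krt24 (0.50), the imprinted zinc-finger gene Peg3 (0.50), Nav1 (0.54) and the tetraspanin Tspan18 (0.56). Smim3 averaged 215 in Ring1a/b 2KO against 28.5 in Ring1 controls, and 278 in Eed knockouts against 90.7 in Eed controls. Krt24 averaged 372 in Ring1a/b 2KO against 77.1 in Ring1 controls, and 403 in Eed knockouts against 412 in Eed controls. That these genes also differ between the groups follows from their choice.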

How the data were processed

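Epidermal RNA of 10 libraries in 4 groups was analysed. The submitters' processing notes name kallisto 0.42.5, DESeq2 3.11 and the build mm10; whether reads kept their strand is not given in the sources. The values of each library are normalized counts (a signal unit) in the authors' deposited tables, whose log2 fold changes and p-values are the authors' own. Of these values 100% were whole multiples of 1 step within 1e-06, so reads were recovered for DESeq2 1.42.0 and edgeR 4.0.16, run as alternatives. The main fit was limma 3.58.1 (R 4.3.3; trend, robust) on log2(value + 1) over all genes with a mean of at least 5, each knockout against its own controls, with Benjamini-Hochberg adjustment and a threshold of 0.05. It was run on simulated counts where all genes scattered alike and only genes with a control mean of at least 50 were changed. That run does not check the fit for members with low or widely scattered counts. The members, lists and named-gene rule (all members; targeted genes; up to 4 list genes per direction averaging 50 or more without overlap, those called, and the 5 most like Defb1) were chosen with earlier results of these data known.

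Tried as alternatives were a minimum mean of 50 or none, pseudocounts of 0.5 and 5, a threshold of 0.1, quantile normalization, median centring, DESeq2, edgeR, a replicate block and leaving out single libraries. The authors' deposited calls, DESeq2 without each library and the Y-linked level as a term were added after seeing the data. Where 1 library was left in a group, it was assumed to vary like the others. Ratios are of group means. Floors (3 reads) and 95% intervals hold counting error alone: the RNA was amplified and carried no molecular identifiers, so reads are not separate molecules. Gene positions come from GENCODE M21, which held 17830 of the 18502 Eed identifiers and 17686 of the 18344 Ring1 identifiers in the same version.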

Additional observations from a re-analysis of the deposited data

How the results depend on the processing

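The count of genes that limma called changed with the tool and the library left out. For Eed knockouts it was 0, against 127 with DESeq2 on recovered reads and 127 in the authors' deposited table, and without single libraries 0 to 4 with limma (4 without Eed knockout 2, 2 without Eed control 2) and 30 to 189 with DESeq2 (30 without Eed knockout 1, 81 without control 3, 144 without knockout 3, 188 without control 2, 189 without knockout 2). For Ring1a/b 2KO it was 6, against 10 without the filter, 231 with DESeq2 and 231 in the authors' deposited table, and without single libraries 0 to 565 with limma (0 without either Ring1 control, 13 without 2KO 2, 565 without 2KO 1) and 39 to 679 with DESeq2 (39 and 95 without Ring1 controls 1 and 2, 679 and 93 without 2KO 1 and 2). The cause was not tested. Replicate numbers are shared between groups, and same-numbered Eed libraries also share a letter in their deposited names. Deviations of same-numbered libraries correlated at −0.11, 0.15 and 0.21 in the Eed table. In the Ring1 table they correlated at 0.14, and those of unlike number at −0.14, a sign that 2 libraries a group force. In the Eed table the libraries numbered 2 and 3 correlated best with their own number, and those numbered 1 did not. These values do not settle whether the numbers are pairs, and the main fit did not take them as pairs. With replicate number as a block the counts were 1 and 36.

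The median of the other antimicrobial genes in Ring1a/b 2KO was −0.90 with a mean of at least 50, and from −0.94 to −0.077 without single libraries (−0.93 with DESeq2 without 2KO 1). In Eed knockouts it ran from −0.25 to 0.023 without single libraries with limma, and from −0.38 to 0.028 with DESeq2. Of 285 alternative fold changes of the members 265 stayed within 1 SD and 20 moved further. Some of them could not move, since another minimum mean or the replicate block leaves a gene's fold change as it is. The authors' deposited values repeat those of DESeq2 on recovered reads. The 265 therefore overstate how stable the fold changes were. The SD is each gene's own spread between libraries, so a scattered gene can change sign within it. For S100a8 in the Eed table it was 2.83, and all 22 alternatives, from −1.61 to 2.29, stayed within it. Most of the 20 were for Wfdc2 in Ring1a/b 2KO, where the SD was 0.061. Its log2 fold change there ranged from 2.46 to 7.86, with 0 reads in both controls. Defb1 in Ring1a/b 2KO ranged from 2.44 to 2.99. With 2 libraries a group in the Ring1 table and 6237389 reads in the smallest, differences in Defb14 and Slpi could not be resolved.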
